A study of Mus musculus with 12 samples.

Results

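Protein kinase A and the G proteins that feed into second messenger signaling were represented on the panel by 8 genes. They encode the catalytic subunits *Prkaca* and *Prkacb*, the regulatory subunits *Prkar1b*, *Prkar2a* and *Prkar2b*, and the G protein alpha subunits *Gnas*, *Gna11* and *Gnaq*. The genes were chosen by family, and all 8 were found among the 770 genes measured. RNA was counted on the nCounter platform, which reads molecules with color-coded probes and without amplification, in 4 control eyes, 5 *RBS* lesions and 3 Shh-MBs, each from an individual mouse. *RBS* lesions were taken from the eyes of embryos at E18.5, after tamoxifen at E8.5, with the genotype *Rax-creERT2::Ctnnb1(ex3)Fl/+SmoM2Fl/+*. In them, Cre under control of *Rax* in the early retina removes exon 3 of *Ctnnb1*, which stabilizes beta-Catenin, and turns on SmoM2, a constitutively active *Smo*. The lesions take the place of most of the eye, so a sample holds a mixture of lesion and remaining tissue. Control eyes came from E18.5 embryos with the same *Ctnnb1(ex3)Fl/+SmoM2Fl/+* alleles and no Cre, and the labels do not state whether they were exposed to tamoxifen. Shh-MBs were hindbrain tumors of *hGFAP-cre::SmoM2Fl/+* mice at 14 days after birth. They carry active SmoM2 without the *Ctnnb1* change, under a Cre driver of neural precursors. Tissue, age and genotype therefore differ together between Shh-MBs and both kinds of eye sample and cannot be told apart.

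As background, protein kinase A is held inactive while its regulatory subunits bind the catalytic subunits, and it is released when cyclic AMP binds the regulatory subunits. *Gnas* encodes the stimulatory alpha subunit that drives adenylyl cyclase to make cyclic AMP, whereas *Gnaq* and *Gna11* encode the closely related alpha subunits that activate phospholipase C beta. In the Hedgehog pathway, protein kinase A phosphorylates Gli proteins and marks them for processing into repressors, and active *Smo* relieves this restraint.

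To show the sequence context of the catalytic pair, which differed from each other in their response, the 250 bases before the outermost annotated start of each gene are given 5′ to 3′ from the RefSeq promoter table (build GRCm38). The *Prkaca* window lies at chr8:83972728-83972977 on the plus strand and the *Prkacb* window at chr3:146812947-146813196 on the minus strand. Capitals mark the core TGACG of the cyclic AMP response element, or its reverse complement CGTCA, which is the letter pattern read by CREB, a transcription factor that protein kinase A phosphorylates.
*Prkaca*: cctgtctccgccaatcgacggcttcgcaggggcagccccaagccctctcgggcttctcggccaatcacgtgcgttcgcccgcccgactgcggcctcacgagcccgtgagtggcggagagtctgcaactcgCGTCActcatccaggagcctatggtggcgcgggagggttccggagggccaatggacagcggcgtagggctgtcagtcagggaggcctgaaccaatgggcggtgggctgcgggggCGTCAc
*Prkacb*: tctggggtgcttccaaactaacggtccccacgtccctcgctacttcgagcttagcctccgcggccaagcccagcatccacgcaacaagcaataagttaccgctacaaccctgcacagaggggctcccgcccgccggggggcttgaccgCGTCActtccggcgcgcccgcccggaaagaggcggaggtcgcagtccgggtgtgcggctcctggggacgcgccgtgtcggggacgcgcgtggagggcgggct
The *Prkaca* window held 2 matches and the *Prkacb* window 1. The 8 genes had 19 windows in the table, of which 6 held the core, namely 1 of 2 for *Prkaca*, 1 of 3 for *Prkacb*, 1 of 5 for *Prkar1b* and 3 of 4 for *Gnas*. Some of these windows overlap, since a gene can have several close start sites. Among 32851 windows of the same length over all annotated genes, 17.8% held the core on either strand, and 23.2% of the 754 windows of panel genes did. The full element TGACGTCA, which contains the core, was in 1.55% of all windows. The Gli motif GACCACCCA was in 0.225% and the TCF and LEF motif CTTTGAT in 3.21%. None of these longer motifs was found, on either strand, in the windows of the 8 genes.

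The values are normalised signal on a linear scale, from which a background level appears to have been subtracted, though the sources do not state this. Dividing each sample's total by the median step between its neighboring low values gave between 335392 and 716684 counts above background per sample. *RBS* 1 was the lowest. *Prkaca*, *Prkacb*, *Prkar2a*, *Prkar2b*, *Gnas*, *Gna11* and *Gnaq* measured 328 or more in every sample, far from that step of 0.810 to 1.64, and the lowest value of *Prkar1b* was 36.3. Signals of different probes were not compared as levels, since probes differ in efficiency. In bulk tissue, fewer cells of a type and less RNA per cell cannot be told apart. The 3 comparisons share samples with each other and are given side by side.

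Of the 8 genes, 7 exceeded control eyes in the *RBS* lesions past the threshold (limma, adjusted p under 0.05 over all genes), and none was lower. The exception was *Prkaca*. The log2 differences of the members ran from 0.23 to 1.63 with a median of 0.96, against a median of 0.17 over all genes. Of all 770 genes, 33.0% were called higher and 18.2% lower in this comparison. Those 7 genes also had no overlap between the groups, with every lesion above every control eye, as had 27.5% of all genes, while 15.8% of all genes had every lesion below every control eye. Against Shh-MBs, 7 members were likewise called higher in *RBS* lesions and none lower, with *Gna11* as the exception. Here the background was broad, with 48.1% of all genes called higher and 12.7% called lower. Non-overlap was found for the same 7 members and for 47.0% of all genes in that direction, and for 12.9% in the other. Between Shh-MBs and control eyes, 3 members were lower in the tumors, *Prkar1b*, *Prkar2b* and *Gnas*, and none was higher, where 31.4% of all genes were called lower and 9.61% higher. In this comparison, 4 members lay below every control eye in every tumor, as did 36.0% of all genes, and *Gna11* lay above every control eye, as did 12.2%.

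**Figure D1:**
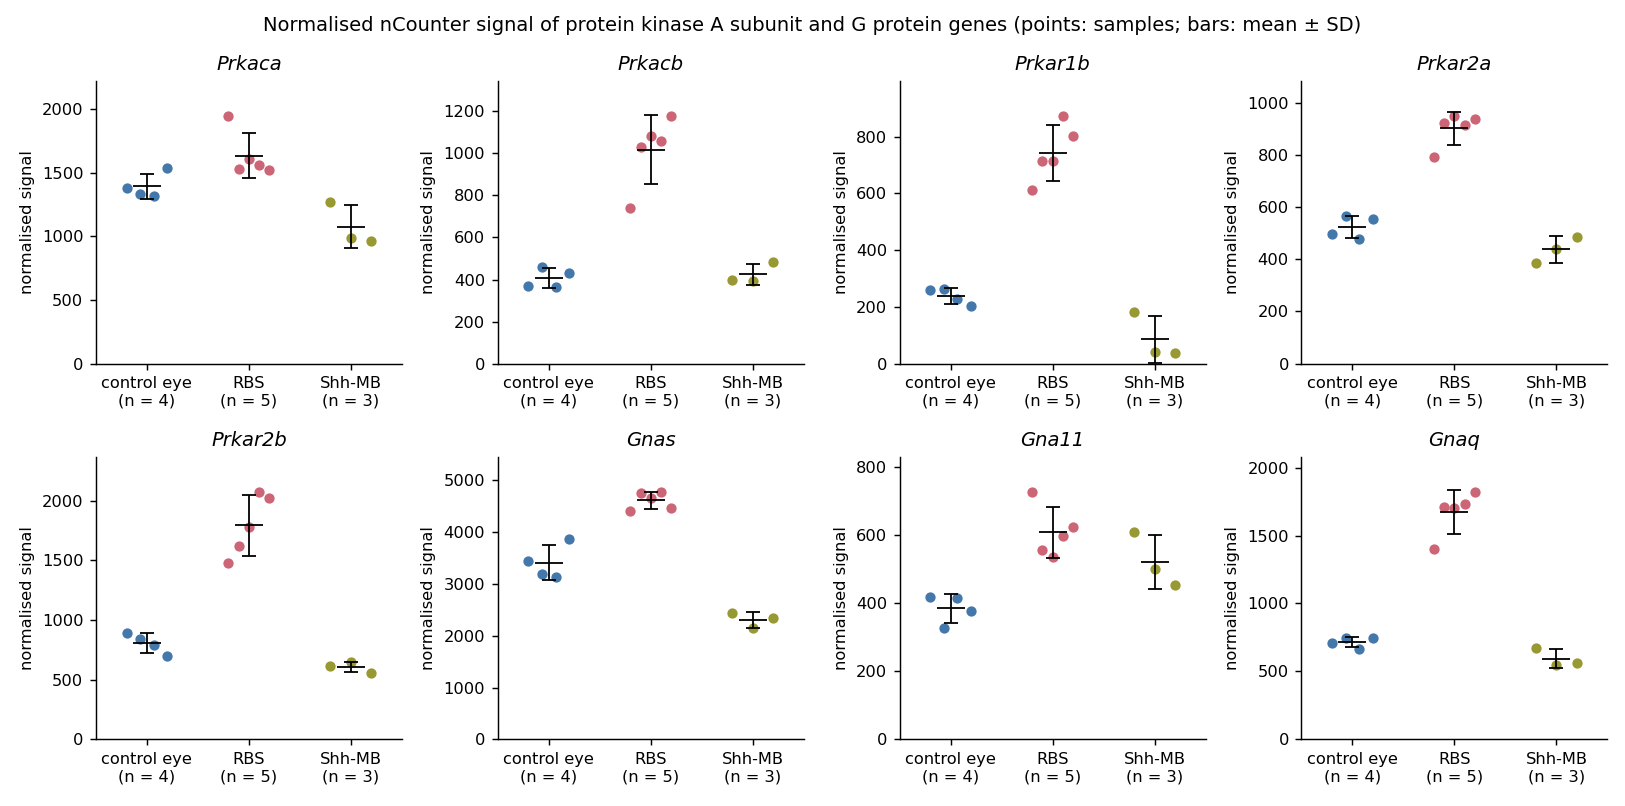
Normalised signal of the 8 genes (y axis, linear scale from 0) in each sample of the 3 groups (x axis). Points are samples in replicate order and bars are the mean ± SD. For every gene except *Prkaca* the 5 *RBS* lesions sit above the 4 control eyes, and for *Prkar1b* Shh-MB 1, at 182, sits apart from Shh-MB 2 and 3, at 39.9 and 36.3.

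Of the catalytic subunits, *Prkaca* encodes the broadly expressed alpha form. Its signal was 1382, 1337, 1321 and 1537 in the control eyes. It was 1944, 1533, 1612, 1561 and 1521 in the *RBS* lesions, and 1269, 992 and 966 in the Shh-MBs. Lesions and control eyes overlapped, because control eye 4 lay at the level of the lesions, and all 3 tumors were below both. *RBS* lesions had a mean of 1634 ± 177 (SD, n = 5) and control eyes of 1394 ± 98.8 (SD, n = 4), a log2 difference of 0.23 (SE 0.10, 95% interval -0.00235 to 0.45) that did not pass in limma (adjusted p = 0.0924). Shh-MBs, at 1075 ± 168 (SD, n = 3), were lower than the lesions by 1.52-fold (adjusted p = 0.00468). The tumors did not differ past the threshold from control eyes, at an adjusted p of 0.0564, but this was near the threshold and 7 of 19 alternatives called *Prkaca* lower in tumors, among them centring on housekeeping genes (adjusted p = 0.0433) and leaving out Shh-MB 1 (adjusted p = 0.0130). The order of the means was *RBS* lesions, control eyes and Shh-MBs.

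*Prkacb*, the beta catalytic subunit, which is prominent in neural tissue, gave a larger difference. Control eyes measured 368, 462, 364 and 433. *RBS* lesions measured 741, 1031, 1080.2, 1058 and 1176, and Shh-MBs 397, 394 and 482. Every lesion exceeded every other sample, although *RBS* 1 was well under the remaining lesions, and the ranges of tumors and control eyes overlapped, with Shh-MB 3 above every control eye. The means were 1017 ± 164 (SD, n = 5) in lesions, 407 ± 48.6 (SD, n = 4) in control eyes and 424 ± 50.3 (SD, n = 3) in tumors. Lesions were 2.48-fold above control eyes (log2 difference 1.31, SE 0.15, adjusted p = 0.000114) and 2.38-fold above Shh-MBs (log2 difference 1.25, SE 0.17, adjusted p = 0.000289). Shh-MBs and control eyes differed by 0.06 on the log2 scale, with a 95% interval from -0.27 to 0.39.

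*Prkar1b* encodes a type I regulatory subunit known from neurons, and it showed the widest differences of the 8 genes. Its signal in the control eyes was 259.8, 265, 229.8 and 202. The lesions reached 611, 713, 713, 872 and 804, whereas the tumors gave 182, 39.9 and 36.3. The groups did not overlap, and the 3 levels were ordered *RBS* lesions, control eyes and Shh-MBs. Lesions were 3.09-fold above control eyes (log2 difference 1.63, SE 0.13, adjusted p = 1.63e-05). Against Shh-MBs the difference was 11.3-fold (log2 difference 3.50, SE 0.49, adjusted p = 0.000392), and it was 18.9-fold without Shh-MB 1. The tumors were 3.66-fold below control eyes (log2 difference -1.87, SE 0.56, adjusted p = 0.0348).

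Shh-MB 1 stood apart from both other tumors for *Prkar1b* and for other genes. Of 502 genes with a mean signal of at least 20 in the tumors, 37 differed by more than 2-fold between Shh-MB 1 and the mean of Shh-MB 2 and 3, with *Prkar1b* at rank 10 of those higher in Shh-MB 1. The same count was 18 for Shh-MB 2 and 11 for Shh-MB 3. Without Shh-MB 1, the difference of tumors from control eyes in *Prkar1b* was 6.12-fold (adjusted p = 9.17e-05). Leaving out any other tumor or control eye instead gave adjusted p-values between 0.0625 and 0.113, which did not pass.

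The type II regulatory subunits tether the kinase to anchoring proteins. *Prkar2a*, the broadly expressed alpha form, was 498, 566, 477 and 555 in control eyes. It was 792, 923, 947, 913 and 937 in the *RBS* lesions, and 385, 439.9 and 487 in the Shh-MBs. All lesions were above all other samples, and tumors overlapped with control eyes through Shh-MB 3. Lesions were 1.72-fold above control eyes (log2 difference 0.78, SE 0.09, adjusted p = 0.000144) and 2.07-fold above tumors (log2 difference 1.05, SE 0.11, adjusted p = 0.000101). Tumors and control eyes differed by -0.26 (95% interval -0.56 to 0.03, adjusted p = 0.132).

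*Prkar2b*, the beta form, which is abundant in brain and fat, was 896, 844, 792 and 703 in control eyes. *RBS* lesions had 1479, 1621, 1782, 2073 and 2021, and Shh-MBs had 612, 647 and 559. The 3 groups did not overlap. Lesions were 2.21-fold above control eyes (log2 difference 1.14, SE 0.13, adjusted p = 0.000107) and 2.94-fold above tumors (log2 difference 1.56, SE 0.14, adjusted p = 3.66e-05). The tumors were 1.33-fold below control eyes (adjusted p = 0.0309), and this passed again on leaving out control eye 4 (adjusted p = 0.0205) but not on leaving out any other sample (adjusted p from 0.0586 to 0.0979).

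Among the G protein alpha subunits, *Gnas* reads out a complex imprinted locus with several start sites, and the probe may not separate its transcripts. Control eyes had 3442, 3189, 3132 and 3871. *RBS* lesions had 4404, 4758, 4667, 4772 and 4461, and Shh-MBs 2448, 2143 and 2340.1. No sample of any group reached into another group. Lesions, at 4612 ± 170.3 (SD, n = 5), were 1.36-fold above control eyes (log2 difference 0.44, SE 0.09, adjusted p = 0.00267) and 2.00-fold above tumors (log2 difference 1.00, SE 0.09, adjusted p = 3.82e-05). Shh-MBs were 1.47-fold below control eyes (log2 difference -0.56, SE 0.11, adjusted p = 0.00757), a call that was kept with each of the 7 samples left out in turn.

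*Gnaq* encodes the alpha subunit of Gq. Its signal was 713, 745, 663 and 744 in control eyes. *RBS* lesions gave 1400.4, 1707, 1699.8, 1735 and 1819.7, and Shh-MBs 673, 545 and 566. The lesions were well above the rest, and the highest tumor lay within the range of the control eyes. The difference was 2.33-fold from control eyes (log2 difference 1.22, SE 0.10, adjusted p = 1.63e-05) and 2.81-fold from tumors (log2 difference 1.49, SE 0.12, adjusted p = 2.58e-05). Tumors and control eyes differed by -0.27 (SE 0.11), at an adjusted p of 0.0952.

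Its relative *Gna11* had another order. Control eyes had 419, 328, 417 and 377. *RBS* lesions had 728, 556, 537, 599 and 626, and Shh-MBs 611, 503 and 454. Every lesion and every tumor was above every control eye, while lesions and tumors overlapped. *RBS* lesions were 1.58-fold above control eyes (log2 difference 0.66, SE 0.12, adjusted p = 0.00155). Lesions and tumors differed by 0.22 (95% interval -0.11 to 0.56, adjusted p = 0.208), and tumors and control eyes by 0.43 (95% interval 0.08 to 0.79, adjusted p = 0.0559). In order of mean signal, *RBS* lesions came first, then Shh-MBs, then control eyes, with neither neighboring pair separated by the test.

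**Figure D2:**
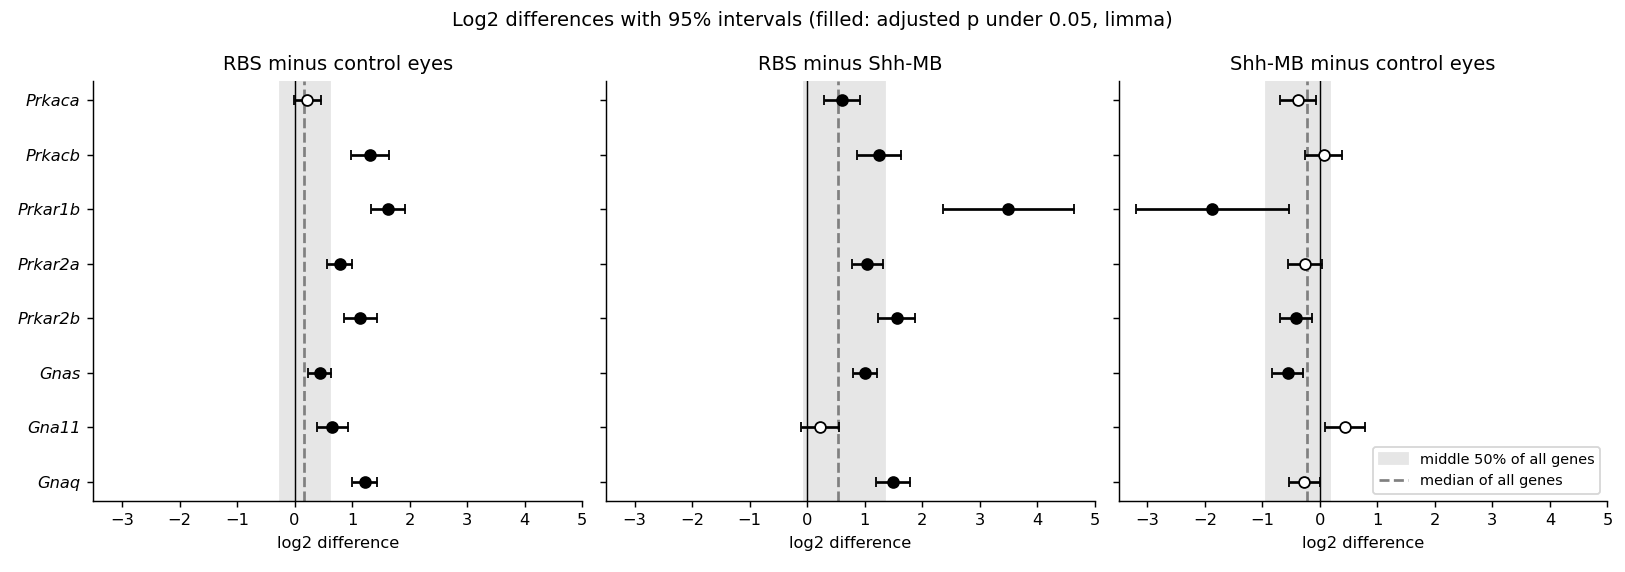
Log2 differences of the 8 genes (x axis) with 95% intervals in the 3 comparisons, from limma. Filled points passed an adjusted p of 0.05 over all genes, the dashed line is the median and the grey band the middle 50% of all 770 genes. Against control eyes, *Prkacb*, *Prkar1b*, *Prkar2a*, *Prkar2b*, *Gna11* and *Gnaq* lie to the right of the band, whereas most points of Shh-MBs minus control eyes lie within it and 2 of those change side with the scaling of the total.

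The scaling of the samples mattered for the comparisons with Shh-MBs. The median of all genes was 0.17 for lesions minus control eyes, 0.53 for lesions minus tumors and -0.22 for tumors minus control eyes. When each sample was centred on its own median these became -0.01, -0.32 and 0.44. For lesions minus control eyes, the same 7 members stayed higher and called under centring on the median, centring on housekeeping genes, quantile normalization and a common total that left out the 3 most abundant genes. The smallest value was that of *Gnas*, 0.26 with median centring, and *Prkacb* stayed between 1.12 and 1.36.

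For lesions minus tumors, *Prkar1b*, *Prkar2b* and *Gnaq* remained called under all 4 of these scalings, at no less than 2.61, 0.71 and 0.64 on the log2 scale. With median centring, *Prkacb*, *Prkar2a* and *Gnas* were no longer called, at 0.40, 0.20 and 0.15. *Prkaca* turned to -0.24 under that setting, and it was not called under quantile normalization (0.11) or scaling to the total (0.23). *Gna11* was lower in lesions with median centring (-0.62, adjusted p = 0.00353). For tumors minus control eyes, *Prkar1b* was the only 1 of the 3 called members that kept its sign under all 4 scalings, from -1.15 to -1.88, but it was called only as deposited and with housekeeping genes. *Gna11* was higher in tumors under every scaling and was called under 3 of the 4. The signs of *Prkaca*, *Prkar2a*, *Prkar2b*, *Gnas* and *Gnaq* turned with median centring, under which *Prkacb* (0.73), *Gna11* (1.10) and *Gnaq* (0.39) were called higher in tumors.

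**Figure D3:**
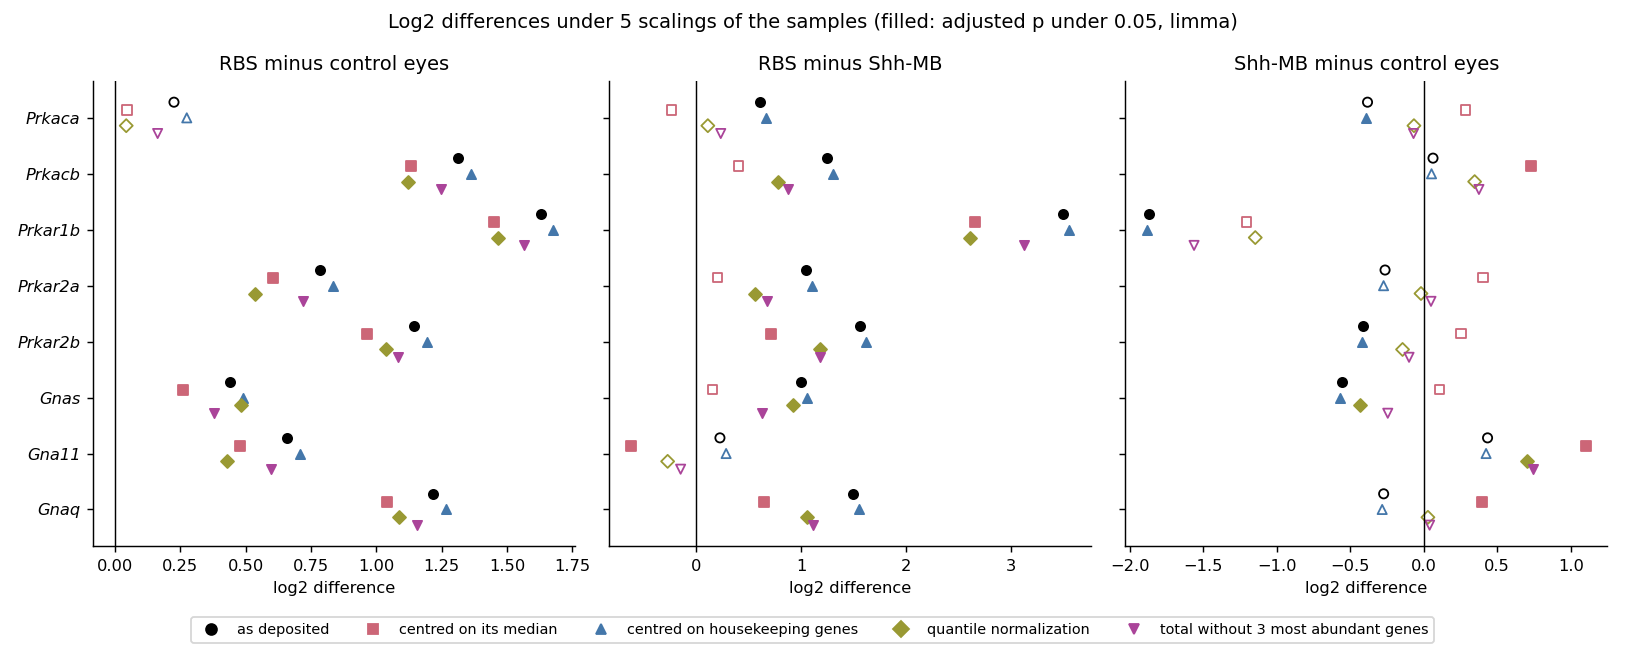
Log2 differences of the 8 genes (x axis) as deposited and under 4 other scalings of the samples, with filled symbols for an adjusted p under 0.05 in limma. In lesions minus control eyes all points stay right of 0 and only *Prkaca* is open throughout, while in tumors minus control eyes 5 genes cross 0 with median centring.

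Ratios of related genes within a sample do not depend on its scaling and show whether a pair moved unequally. The log2 ratio of *Prkacb* over *Prkaca* was -1.91, -1.53, -1.86 and -1.82 in control eyes. In *RBS* lesions it was -1.39, -0.57, -0.58, -0.56 and -0.37, and in Shh-MBs -1.68, -1.33 and -1.0001. Every lesion was above every control eye, with *RBS* 1 the closest to them. The lesions exceeded control eyes by 1.09, a 2.12-fold shift toward *Prkacb* (exact permutation test, two-sided, p = 0.0159, adjusted p = 0.0476 over 9 tests). The lesions exceeded tumors by 0.64 (exact p = 0.107). With a sample left out this ranged from 0.47 without Shh-MB 1 (exact p = 0.286) to 0.81 without *RBS* 1 (exact p = 0.0286, not adjusted), and *RBS* 1 lay apart from the other lesions in both genes.

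For *Prkar2b* over *Prkar2a* the log2 ratio was 0.85, 0.58, 0.73 and 0.34 in control eyes. It was 0.90, 0.81, 0.91, 1.18 and 1.11 in *RBS* lesions, and 0.66, 0.56 and 0.20 in Shh-MBs. All but 1 of the lesions lay above all other samples. The difference was 0.36 between lesions and control eyes (exact permutation test, p = 0.0238, adjusted p = 0.0476) and 0.51 between lesions and tumors (exact p = 0.0179, adjusted p = 0.0476). The first did not pass without *RBS* 1, *RBS* 3, *RBS* 4 or *RBS* 5 (exact p = 0.0571 for each) or without control eye 4 (exact p = 0.0714). The second did not pass without Shh-MB 3 (exact p = 0.0952).

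*Gnaq* over *Gna11* separated the tumors most. Its log2 ratio was 0.76, 1.18, 0.67 and 0.98 in control eyes. It was 0.94, 1.62, 1.66, 1.53 and 1.54 in *RBS* lesions, and 0.14, 0.12 and 0.32 in Shh-MBs. All tumors lay below all eyes, and *RBS* 1 lay among the control eyes. Lesions exceeded tumors by 1.27 (exact permutation test, p = 0.0179, the smallest possible with 56 divisions, adjusted p = 0.0476), and tumors were below control eyes by -0.71 (exact p = 0.0286, the smallest possible with 35 divisions, adjusted p = 0.0476). The difference of lesions and control eyes was 0.56 (exact p = 0.0317, adjusted p = 0.0476). It did not pass without *RBS* 2, *RBS* 3, *RBS* 4 or *RBS* 5 (exact p = 0.0857 for each), nor without control eye 1 or 3 (exact p = 0.0893) or control eye 4 (exact p = 0.0536).

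**Figure D4:**
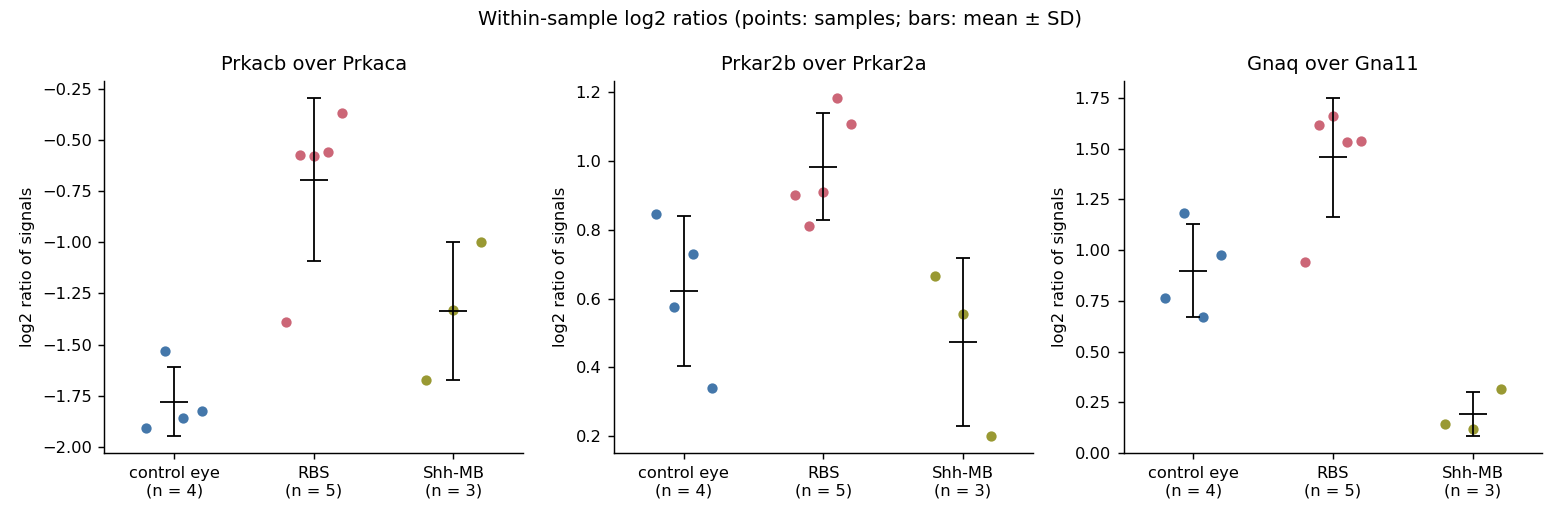
Log2 ratio of signals within each sample (y axis) for 3 pairs of related genes in the 3 groups (x axis), with points for samples and bars for the mean ± SD. The y axes do not start at the same value and the level of a ratio depends on the probes. For *Gnaq* over *Gna11* the 3 Shh-MBs lie between 0.12 and 0.32, below all eyes, and *RBS* 1 is the lesion nearest to the control eyes in the left and right panels.

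Likeness of pattern was measured as the root mean square difference between log2 profiles centred over the 12 samples, among 569 genes with a mean signal of at least about 20. The nearest genes were sought outside the 8, and distances among the 8 are given separately. For *Prkacb*, whose own profile had a root mean square of 0.66, the nearest outside genes were *Pik3r3* (0.16) and *Aph1b* (0.20). For *Gnaq* these were *Itgb8* (0.15) and *Pik3r3* (0.17). Within the family, *Gnaq* and *Prkar2b* were each other's nearest (0.15), and *Prkacb* was nearest to *Gnaq* (0.19). The nearest outside genes of *Prkar2b* were *Fgf13* (0.12) and *Pak3* (0.16), and those of *Prkar2a* were *Atrx* (0.10) and *Tsc1* (0.14). For *Prkar1b* they were *Hdac11* (0.41) and *Gng4* (0.42), beside its own root mean square of 1.49, and *Hdac11* was also raised in Shh-MB 1, at 225 against 27.7 and 32.0. For *Gnas* these genes were *Sos2* (0.08) and *Jak1* (0.08), for *Gna11* *Rbx1* (0.08) and *Numbl* (0.14), and for *Prkaca* *Chuk* (0.13) and *Hsp90b1* (0.13). The profile of *Prkaca* was the flattest of the 8, with a root mean square of 0.27.

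Of the Hedgehog pathway, 10 of the 22 genes listed were on the panel, and in *RBS* lesions 4 of them were higher and 3 lower than in control eyes, beside 33.0% and 18.2% of all genes. *Ptch1*, the receptor and a target gene of the pathway, ranged from 165 to 219.9 in control eyes, from 773 to 1043 in lesions and from 959 to 1139.8 in Shh-MBs. Lesions were 4.63-fold above control eyes (log2 difference 2.21, adjusted p = 3.12e-06). *Lrp2*, an endocytic co-receptor, was 6.35-fold higher in lesions (adjusted p = 2.53e-06). *Gli1*, the activator and target most used as a readout, was 99.1 to 118 in control eyes, 47.9 to 79.6 in lesions and 212 to 241 in tumors, so lesions were lowest (log2 difference -0.67 from control eyes, adjusted p = 0.00559). *Gli3*, the main substrate turned into a repressor after phosphorylation by protein kinase A, was lower in lesions by -1.34 on the log2 scale (adjusted p = 7.28e-05), and in tumors relative to control eyes by -3.13 (adjusted p = 0.000247). *Gas1*, a co-receptor, was lower in lesions by -0.95 (adjusted p = 0.00047).

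Neither *Smo* nor *Sufu* passed between lesions and control eyes. *Smo* differed by 0.18 (adjusted p = 0.164), with the sign turned under median centring (-0.00321) and quantile normalization (-0.02). *Sufu*, which holds Gli proteins, differed by -0.02 (adjusted p = 0.821), and by 0.02 with housekeeping genes, while quantile normalization alone called it lower (-0.24, adjusted p = 0.0141). In Shh-MBs, *Sufu* was 2.20-fold above control eyes (adjusted p = 0.000433). *Gli2* was not among the genes measured.

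Of the other G protein subunits, 5 of 18 listed were present, all gamma subunits. In lesions 4 of the 5 were higher than in control eyes and 1 lower, beside 33.0% and 18.2% of all genes. The median log2 difference of the 5 was 1.61. These counts were the same under all 4 other scalings, which called 177 to 271 of all 770 genes higher and 129 to 179 lower. *Gng2* had signals of 618 to 774 in control eyes and of 2579 to 3570.4 in lesions (4.39-fold, adjusted p = 3.49e-06). *Gng4* was 3.94-fold higher (adjusted p = 7.39e-05) and *Gng7* 3.06-fold higher (adjusted p = 0.000356). *Gngt1*, the gamma subunit of rod transducin, was 31.3 to 55.6 in control eyes, 1.21 to 17.1 in lesions and at the lowest value of its sample in all 3 tumors. Lesions were lower (adjusted p = 0.00538), and no size is given because their values lay near the lowest.

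Of genes for cyclic AMP response and coactivators, 9 of 14 listed were present, and 5 were higher and none lower in lesions than in control eyes, beside 33.0% and 18.2% of all genes. *Fos*, an immediate early gene with a cyclic AMP response element, was 29.0 to 57.4 in control eyes and 59.9 to 121 in lesions (2.32-fold, adjusted p = 0.00559). The coactivators that CREB recruits changed little, with *Ep300* 1.32-fold (adjusted p = 0.0106) and *Crebbp* 1.28-fold (adjusted p = 0.0127) higher, and neither was called with median centring (adjusted p = 0.118 and 0.148) or quantile normalization. Under these scalings 2 of the 9 genes were higher and 1 lower, and with median centring 177 of all 770 genes were higher, a similar share. Of 17 adenylyl cyclases, phosphodiesterases and related genes listed, none was on the panel. Other genes of the enzymes that make and break cyclic AMP were not looked up.

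Downstream of Gq and G11, 12 of 19 listed genes were present. Of the 12, 10 were higher and 1 lower in lesions than in control eyes, beside 33.0% and 18.2% of all genes. Their median log2 difference was 0.63 beside 0.17 for all genes. *Plcb1*, a phospholipase C that Gq activates, was 42.9 to 68.8 in control eyes, 230.2 to 392 in lesions and 230.5 to 252 in Shh-MBs. Lesions were 5.22-fold above control eyes (adjusted p = 2.02e-05). *Camk2b*, a calcium and calmodulin dependent kinase of neurons, was 3.23-fold higher (adjusted p = 9.12e-06), *Prkca* 2.79-fold (adjusted p = 3.12e-06) and *Plce1* 2.39-fold (adjusted p = 0.000134). The count of genes called higher was 7 with median centring, 9 under either quantile normalization or a common total, and 10 with housekeeping genes. Over all 770 genes it was 177 with median centring, 187 with quantile normalization, 237 on a common total and 271 with housekeeping genes. *Ppp3r2* of this list averaged 1.29 in control eyes, with 2 of 4 at the lowest value of their sample. Against Shh-MBs, 6 of the 12 were higher in lesions, close to the 48.1% of all genes, and 1 was lower. These counts were 2 and 3 with median centring, 2 and 2 with quantile normalization and 3 and 2 on a common total. The gene lower as deposited was *Prkcb*, at 1194 in tumors and 346 in lesions on average (adjusted p = 4.55e-05).

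**Figure D5:**
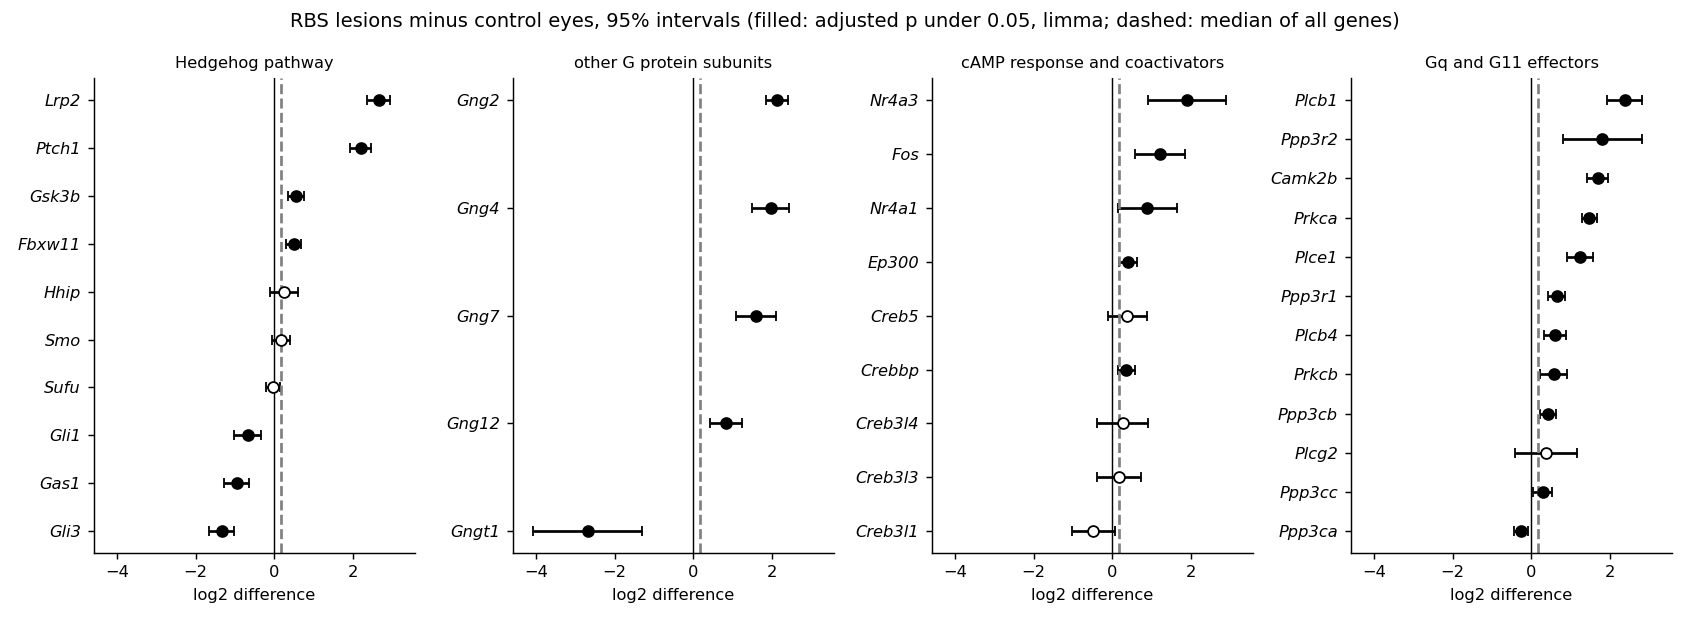
Log2 differences of *RBS* lesions minus control eyes (x axis) with 95% intervals for 4 lists of pathway genes, with filled points for an adjusted p under 0.05 in limma and a dashed line at the median of all genes, 0.17. Most genes downstream of Gq and G11 and all gamma subunits but *Gngt1* lie to the right of 0, whereas the Hedgehog list has genes on both sides, with *Smo* and *Sufu* near 0 and changing side with the scaling.

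Markers of neurons and of cycling cells differed between lesions and control eyes beside the 7 called genes. Of 7 neuron markers, 6 were higher and none lower in lesions than in control eyes, beside 33.0% and 18.2% of all genes. The summed signal of the 7 was 965 to 1070.3 in control eyes, 2829 to 3737 in lesions and 1124 to 1608 in Shh-MBs. In control eyes and lesions most of the sum came from *Mapt*. Gene by gene, 3 of the 7 were higher and 1 lower in lesions than in Shh-MBs, beside 48.1% and 12.7% of all genes. Their median log2 difference was 0.40, which became -0.45 with median centring. In Shh-MBs, 5 were higher and 1 lower than in control eyes, beside 9.61% and 31.4% of all genes. *Grin2b*, counted among these 5 (adjusted p = 0.0388 in limma), was not called without any 1 of the tumors, nor without control eye 2 or 3. None of the 7 markers was at the lowest value in all samples of a group, though *Grin2a* was below 12 throughout. *Mapt*, which encodes the axonal protein tau, rose 3.25-fold (adjusted p = 9.12e-06) and *Grin2b*, a glutamate receptor subunit, 9.22-fold (adjusted p = 6.82e-06). *Cacna1e*, a calcium channel subunit, was 3.53 to 7.38 in control eyes and 92.4 to 148 in lesions (adjusted p = 1.76e-06), and *Grin1* was 4.25 to 13.4 and 28.4 to 70.01 (adjusted p = 0.000408). Both lay near the lowest values in control eyes, so no fold is given. Of 7 cycling cell markers 6 were lower and none higher in lesions than in control eyes, beside 18.2% and 33.0% of all genes. They summed to 9987 to 12677 in control eyes, 4557 to 5531 in lesions and 11978 to 13481 in tumors. *Top2a* was 2.75-fold, *Ccna2* 2.55-fold, *Mcm5* 2.20-fold and *Pcna* 2.14-fold lower in lesions. The part of either shift in the values of the 8 genes was not tested.

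Markers of retinal progenitors were lower in lesions than in control eyes for 3 of 4 genes, beside 18.2% of all genes. *Ccnd1*, which is very abundant in retinal progenitors, was 7.54-fold, *Fgf15* 7.39-fold and *Hes5* 1.85-fold lower than in control eyes. The summed signal of all 4 genes was 15478 to 21204 in control eyes, 3674 to 5177 in lesions and 2675 to 3049 in tumors. In control eyes and tumors most of it came from *Ccnd1*, at 13870 and 2200 on average. *Fgf15* was at the lowest value in 2 of 3 tumors. The control eyes thus carried genes of retinal progenitors together with the rod gene *Gngt1*. Mesenchyme markers, 9 in number, summed to 26357 to 59349.9 in control eyes, 21208 to 38369 in lesions and 1748 to 2409.6 in tumors. In lesions 1 was higher (*Tnc*, 2.54-fold) and 2 lower (among them *Col1a2*, 1.88-fold) than in control eyes, beside 33.0% and 18.2% of all genes. *Col1a2* was not called without control eye 1 (adjusted p = 0.0533) or with quantile normalization (adjusted p = 0.0520), and the mesenchyme list had 1 higher and 4 lower with median centring and 2 higher and 1 lower with housekeeping genes. Blood and immune markers, 3 in number, summed to 77.1 to 119 in control eyes, 154 to 199.5 in lesions and 96.1 to 214 in tumors. *Csf1r* was 2.12-fold higher in lesions than in control eyes, and in Shh-MBs it was 201 in Shh-MB 1 against 97.0 and 88.0 in Shh-MB 2 and 3. Epithelial markers, 4 in number, summed to 145 to 347 in control eyes, 212 to 480.3 in lesions and 13.1 to 20.9 in tumors. Of these, 2 were higher in lesions than in control eyes, beside 33.0% of all genes. Only 1 was higher with median centring, quantile normalization or a common total. Housekeeping genes were split, with 2 of 10 higher and 3 lower in lesions, beside 33.0% and 18.2% of all genes. Among the lower ones were *Tbp* at -0.54 and *Hprt* at -0.46 on the log2 scale. The higher ones were *Gusb* at 0.42 and *G6pdx* at 0.30, and neither was called with median centring or quantile normalization. The part of these tissues in the values of the 8 genes was not tested.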

How the data were processed

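Gene expression was measured with the nCounter PanCancer Pathways panel for mouse. RNA was extracted from fresh frozen tissue. The authors normalized the counts with nSolver and nCounter Advanced Analysis, and the deposited values are a normalized signal on a linear scale. Low values lie on even steps above an offset, so whole counts could not be recovered and no count test was run. The background setting and the reference genes are not given in the sources used here.

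A pseudocount of 1 was added before taking log2, and all 770 genes were kept. Pairs of groups were compared two-sided by limma (version 3.58.1, R 4.3.3) with Benjamini-Hochberg adjustment over all genes at a threshold of 0.05, and the script was tested on simulated data. Log2 ratios were compared with two-sided exact permutation tests, adjusted over 9 tests. The methods name a Welch test with permutations and an adjusted Bonferroni correction, whose form is not given in the sources used here. As an alternative, the Welch test was run without permutations and with a step-down Bonferroni correction. Other alternatives were 4 scalings, a pseudocount of 5, leaving out genes under a signal of 20 or setting values under 20 to 20, limma with trend and robust settings or over 12 samples, a replicate block, group medians, and leaving out each sample.

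All 8 genes were named in every comparison. Of the lists, *Ptch1*, *Gli1*, *Gli3*, *Smo* and *Sufu* and up to 4 other genes were named. The others had the largest differences between *RBS* lesions and control eyes among called genes without overlap. *Prkcb*, *Ppp3r2* and *Grin2a* were instead chosen after their values were seen. Members and lists were chosen with earlier results of these data known, and 1 gene of the list for Gq and G11 is not reported here. Gene symbols matched the RefSeq table for 760 genes of the panel. Figures were drawn with matplotlib 3.10.9.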

Additional observations from a re-analysis of the deposited data

Results flagged for a closer look

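In *RBS* 1, 4 of the 8 genes lay apart from the other lesions. *Prkaca* was high, at 1944, while *Prkacb* at 741, *Prkar2a* at 792 and *Gnaq* at 1400.4 were low, each with a gap to the next lesion that was too wide for a group of 5 by Dixon's test on log2 values. For *Prkacb* the ratio of gap to range was 0.715 on that scale and passed narrowly, but it was 0.666 on the linear scale and did not pass there, whereas *Prkaca*, *Prkar2a* and *Gnaq* passed on both. With 16 combinations of gene and group tested, 4 samples were found in this way, all of them *RBS* 1, where chance alone flags about 1 in 20 groups and the genes of a sample are not independent. *RBS* 1 was also the sample with the fewest counts above background, 335392, and 18 of 589 genes differed by more than 2-fold from the mean of the other lesions, against 1 to 13 for *RBS* 2 to *RBS* 5. The part of depth in these values was not tested. Without *RBS* 1 the same number of genes, 7, was higher in lesions than in control eyes, with *Prkacb* at 2.68-fold and *Gnaq* at 2.43-fold.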

How the results depend on the processing

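Between lesions and control eyes, 165 of 168 values of single genes kept direction and call over all alternatives, and 7 genes were higher with each sample left out. The Welch test with step-down Bonferroni kept 5 of them (*Gnas* and *Gna11* were lost, and 72 of 770 genes passed, not 394), and limma with trend and robust settings called *Prkaca* too. Between lesions and Shh-MBs, 144 of 160 values were kept. With median centring 3 genes were higher and 1 lower, and the Welch test with step-down Bonferroni kept 1 (80 genes in all, not 468). *Prkaca* was -0.24 with median centring, and *Gna11* gave -0.62 under that setting, -0.27 after quantile normalization and -0.15 on a common total.

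Between Shh-MBs and control eyes, 100 of 152 values were kept. The number of genes higher in tumors, 0 as deposited, was 3 with median centring, and it was 1 after quantile normalization, scaling to the total, a pseudocount of 5, low genes left out, trend and robust settings or 1 fit over 12 samples, and 0 to 1 with a sample left out. The number lower, 3 as deposited, was 0 with median centring, scaling to the total and step-down Bonferroni (36 genes in all, not 316), 1 with quantile normalization, 5 with trend and robust settings, and 1 to 4 with a sample left out. With median centring, *Prkaca* was 0.28, *Prkar2a* 0.40, *Prkar2b* 0.25, *Gnas* 0.11 and *Gnaq* 0.39. *Gnaq* was 0.0281 after quantile normalization and 0.0397 on a common total, where *Prkar2a* was 0.0490. With a sample left out, *Prkacb* ranged from -0.0328 without Shh-MB 3 to 0.126 without control eye 2, and over all alternatives it reached 0.73, with median centring. The cause was not tested.

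Deviations from the group means were weakly correlated between same-numbered samples (r from -0.15 to 0.19). The labels do not say whether such samples share more than a number. The replicate block left 7, 7 and 1 genes called in the 3 comparisons (301, 407 and 230 over all genes), and *Prkar1b* and *Prkar2b* between Shh-MBs and control eyes were lost, at adjusted p of 0.0846 and 0.0546. Over all genes, the calls were 254 higher and 140 lower between lesions and control eyes, but 177 and 177 with median centring and 187 and 179 with quantile normalization. Between lesions and tumors 370 and 98 became 181 and 319, 204 and 234, and 273 and 164 with scaling to the total. Between tumors and control eyes 74 and 242 became 311 and 139, 221 and 147, and 160 and 177.

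Group medians in place of means gave ratio differences that did not pass, of 0.26 and 0.36 for *Prkar2b* over *Prkar2a* (lesions minus control eyes and minus tumors) and 0.67, 1.40 and -0.73 for *Gnaq* over *Gna11* (lesions minus control eyes, lesions minus tumors, tumors minus control eyes). With a sample left out, the ratio of *Prkacb* over *Prkaca* ranged from 0.47 to 0.81 for lesions minus tumors, that of *Prkar2b* over *Prkar2a* from 0.27 to 0.43 and from 0.37 to 0.61, and that of *Gnaq* over *Gna11* from 0.48 to 0.69 for lesions minus control eyes. Between tumors and control eyes, ratios with a sample left out could not reach p of 0.05. For *Prkaca* between lesions and control eyes, the difference ranged from 0.04 with quantile normalization to 0.27 with housekeeping genes.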
